A study of Homo sapiens with 4 samples.

Results

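Integrins and laminins are the genes described here: 12 integrin alpha subunits, 7 integrin beta subunits and 10 laminin chains, 29 genes in all out of 25122 gene symbols matched on the arrays. They were chosen by name, and every probe whose accession belongs to one of them was taken, which gave 40 probes. Total RNA of PC3 and DU145, both androgen-independent human prostate cancer lines (PC3 comes from a bone metastasis), was hybridised to 4 one-colour microarrays, 1 array per group. PC3-shC and DU145-shC carried a control shRNA against luciferase, and PC3-shESS2 and DU145-shESS2 an shRNA against ESS2, a nuclear protein found with the spliceosome. All groups were grown in serum-containing medium and all carried an shRNA, the controls included; the series describes delivery by lentivirus, while the methods of the study describe plasmid transfection with puromycin selection for PC3. The study asked what loss of ESS2 does to gene expression.

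Integrins are membrane receptors made of an alpha and a beta subunit that tie the cytoskeleton to the matrix outside the cell. Laminins are the main adhesive proteins of basement membranes, each built of an alpha, a beta and a gamma chain, and they are ligands of several integrins. In normal prostate the basal cells sit on a laminin-rich basement membrane through integrins such as the ITGA6 and ITGB4 pair, and the laminin that holds the LAMA3 and LAMB3 chains anchors epithelium there.

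Levels are given as the log2 of the processed signal over the 75th percentile of its own array, so 0 is that percentile. Probes differ in how strongly they bind, so a level is compared between arrays for 1 probe and never between genes. With 1 array per group, a difference within a line has no replicate check and no test; a 2-fold difference, 1 on the log2 scale, was used as the call. Where a probe was not well above background on 1 of the arrays compared, the fold is a lower bound, set against the lowest signal that was well above background there. The only spread at hand was that between spots of the same probe: over 286 probes printed 10 times, the log2 ratio of single spots of PC3-shESS2 and PC3-shC had a median SD of 0.0840, which rose to 0.264 in the 3 of them with a level under -2. That spread does not cover culture or labelling.

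On the 4 arrays 50.8% to 52.6% of 60901 spots other than controls lay well above background, and none was saturated, with a 75th percentile of the signal of 263 and 290 in PC3 and of 212 and 218 in DU145. The targeted gene, ESS2, read -0.98 on PC3-shC and -2.44 on PC3-shESS2, -1.31 on DU145-shC and -3.66 on DU145-shESS2, and so was lower on both knockdown arrays. Each line had its own slide and scan, by the file headers, and its own release of the image extraction software, so line and slide cannot be told apart. All 5 epithelial markers (EPCAM, CDH1, KRT8, KRT18, KRT19) were well above background on every array. Of other cell types, COL1A2, DCN, CD3E and KDR were not well above background on any array, while 3 to 4 of 6 mesenchymal, 3 to 4 of 5 leukocyte and 2 to 3 of 4 endothelial markers were. Their summed levels, as multiples of the 75th percentile, ran from 16.1 on PC3-shC to 35.6 on PC3-shESS2 for the mesenchymal list, and were 180 and 159 on the DU145 arrays. Between the PC3 arrays VIM had a log2 ratio of 2.64 and CDH2 0.68, while COL1A1 had -0.57 and PDGFRB -0.12. For PC3-shC over DU145-shC the log2 ratios were -6.25 for VIM, at least 8.21 for CDH2, 1.33 for COL1A1 and 0.17 for PDGFRB. A sum follows its brightest probes, on the DU145 arrays that of VIM, so it does not rank the lines. The leukocyte list, which holds the integrin subunit ITGB2, went from 20.1 to 6.81 between the PC3 arrays and from 3.06 to 7.36 between the DU145 arrays. The endothelial list went from 1.57 to 0.354 in PC3, and was 0.295 and 0.334 in DU145. In PC3 PECAM1 had a log2 ratio of -4.51, while CDH5 had 0.03 and VWF 0.18. The epithelial sum was 864 and 849 in PC3 and 266 and 287 in DU145, while EPCAM was lower on DU145-shESS2 than on DU145-shC, with a log2 ratio of -2.61. In RNA of whole cultures, a change in the mix of cells and a change in RNA per cell cannot be told apart. The part of these markers in the results that follow was not tested.

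Promoter sequence is shown for ITGA5, LAMA3 and LAMB3, the members that carry a match to TGANTCA, the letters of the AP-1 element, and were also past 2-fold higher on PC3-shESS2, and for ITGB8, which was past 2-fold higher in both lines and carries none. ITGB6, past 2-fold higher in PC3 as well, carries none either. The sequences are RefSeq's, on GRCh38.p14, 5′ to 3′ on the strand of the gene, with the match in capitals. The ITGA5 window is chr12:54419246-54419292 on the minus strand, that of LAMA3 chr18:23872875-23872977 on the plus strand, that of LAMB3 chr1:209651415-209651461 on the minus strand and that of ITGB8 chr7:20330780-20330899 on the plus strand.
ITGA5: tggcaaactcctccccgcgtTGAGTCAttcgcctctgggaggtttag
LAMA3: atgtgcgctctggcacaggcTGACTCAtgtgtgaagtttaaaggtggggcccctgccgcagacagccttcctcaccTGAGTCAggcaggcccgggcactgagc
LAMB3: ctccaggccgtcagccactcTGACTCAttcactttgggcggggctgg
ITGB8: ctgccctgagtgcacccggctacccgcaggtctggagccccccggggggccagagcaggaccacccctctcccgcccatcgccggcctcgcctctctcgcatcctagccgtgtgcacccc

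The match in ITGA5 begins at -6, counted with the first base after the start as 0, those in LAMA3 at -125 and -69, and that in LAMB3 at -67 of 1 of the gene's 3 listed starts. Starts were matched to genes by symbol, so a start shown, that of LAMA3 included, need not be that of the transcript its probe reads. The promoter table, which spans 250 bases before to 50 after each start, holds 22 of the 29 members and not ITGA3, ITGA7, ITGA9, ITGB3, ITGB4, LAMA1 and LAMC3. On both strands TGANTCA occurred in 7.71% of 35116 promoters and in 9.37% of 27305 genes, and in 3 of the 22 members, so the members' count was near that of all genes. The other 6 sequences searched were an NF-kB type sequence of GGG and CC with any 5 bases between (61.7% of genes, 18 members), GGGCGG, which can overlap the former (48.3%, 13 members), CCAAT (39.7%, 4 members), CAGACA (19.9%, 3 members), TATAAA (14.0%, 2 members) and TGACGTCA (2.25%, 0 members). They were chosen after the array values were known, and a match is a run of letters, not a measured site.

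Of the 29 members, 24 were well above background on all 4 arrays, 3 on some (ITGB6, ITGB8, LAMA4) and 2 on none. The last were ITGA4 and ITGA8, an alpha subunit of leukocyte receptors and one that binds nephronectin; all 3 probes of ITGA4 were not well above background anywhere, and for neither gene is a ratio given. The plot of levels by array shows each member in its own row.

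**Figure D1:**
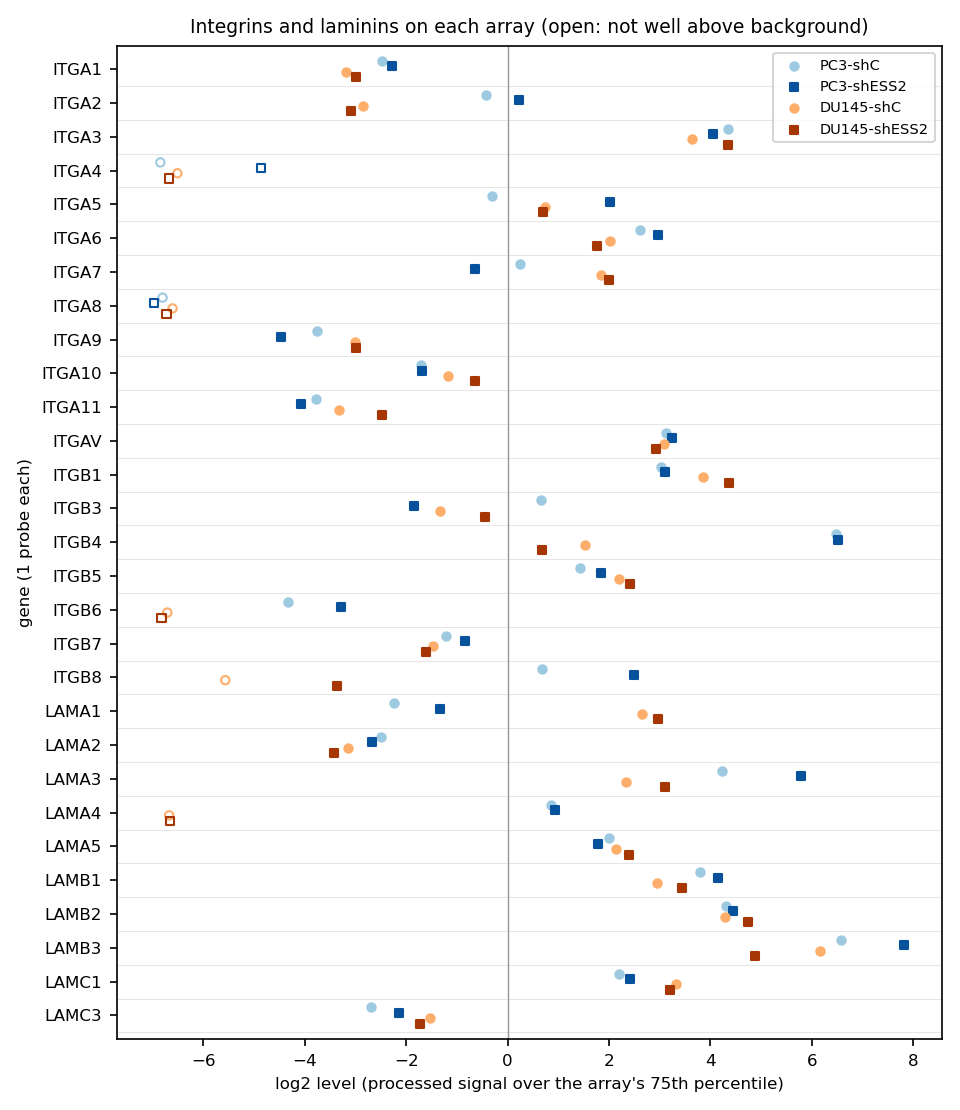
Levels of the 29 integrin and laminin genes on the 4 arrays, each point being 1 array and each row 1 probe; the x axis is the log2 of the processed signal over the array's 75th percentile, and rows are not comparable with each other. ITGB4, ITGB8, LAMA1 and LAMA4 separate the lines most widely, ITGA5 and ITGB3 move within PC3, and open symbols mark points not well above background.

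The question of the first comparison was what the ESS2 shRNA did in PC3. Of the 27 members compared, 5 were past 2-fold higher on PC3-shESS2 (ITGA5, ITGB6, ITGB8, LAMA3, LAMB3) and 1 was past 2-fold lower (ITGB3). That is 18.5% of the members higher and 3.7% lower, where over all 16764 genes compared 3.88% were past 2-fold higher and 3.87% past 2-fold lower. The members' median log2 ratio was 0.20 against -0.05 over all genes, and it stayed above 0 under each scaling tried.

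ITGA5, which pairs with ITGB1 as the classical fibronectin receptor, read -0.30 on PC3-shC, 2.01 on PC3-shESS2, 0.74 on DU145-shC and 0.70 on DU145-shESS2. The 3 other arrays lay within about 1 log2 unit of each other, and PC3-shESS2 stood above them. The ratio was 4.98-fold in PC3 (log2 2.32) and -0.04 on the log2 scale in DU145. ITGB3, the beta subunit of the vitronectin receptor with ITGAV, went the other way, reading 0.66 on PC3-shC, -1.84 on PC3-shESS2, -1.32 on DU145-shC and -0.45 on DU145-shESS2. PC3-shC was the highest and PC3-shESS2 the lowest of the 4, a 5.69-fold lower signal in PC3 (log2 -2.51), while the log2 ratio in DU145 was 0.88.

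The beta subunits that pair with ITGAV to bind latent TGF-beta, ITGB6 and ITGB8, were both higher on PC3-shESS2. ITGB8 read 0.68 on PC3-shC, 2.49 on PC3-shESS2, -5.56 on DU145-shC, where it was not well above background, and -3.37 on DU145-shESS2. It was 3.51-fold higher in PC3 and at least 2.37-fold higher in DU145, which made it the only member past 2-fold in the same direction in both lines. The DU145 log2 ratio was 0.28 with normexp background correction, and none was given there where both arrays had to be well above background. ITGB6 was near the detection limit, at -4.33 on PC3-shC and -3.28 on PC3-shESS2, with -6.71 and -6.82 on the DU145 arrays, both not well above background. Its 2.06-fold ratio in PC3 dropped under 2-fold with median scaling, quantile normalization and normexp background correction, to a log2 ratio of 0.18 with the last. Normexp was run with an offset of 50 added to the signals, which by itself draws ratios of dim probes toward 0. A smaller ratio with normexp at such levels, here and below, is therefore no test of the call.

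LAMA3 and LAMB3 encode the alpha and beta chains of the epithelial anchoring laminin. The brighter probe of LAMA3 read 4.23 on PC3-shC, 5.79 on PC3-shESS2, 2.34 on DU145-shC and 3.1 on DU145-shESS2, a 2.96-fold higher signal in PC3 and 1.70-fold in DU145. LAMB3 read 6.58, 7.83, 6.15 and 4.88 in the same order of arrays. It was 2.38-fold higher on PC3-shESS2 and 2.43-fold lower on DU145-shESS2 than on the control of each line.

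The 2 probes of LAMA3 disagreed in PC3. The second probe, which the array design assigns to a non-coding transcript of the gene, read 1.29 on PC3-shC, -0.66 on PC3-shESS2, -1.34 on DU145-shC and -0.92 on DU145-shESS2. Its log2 ratio was -1.95 in PC3 against 1.56 for the brighter probe, and 0.41 in DU145 against 0.77. With the mean of a gene's probes in place of the brightest, the LAMA3 log2 ratio in PC3 was -0.19, so the direction given for LAMA3 belongs to the brighter probe.

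**Figure D2:**
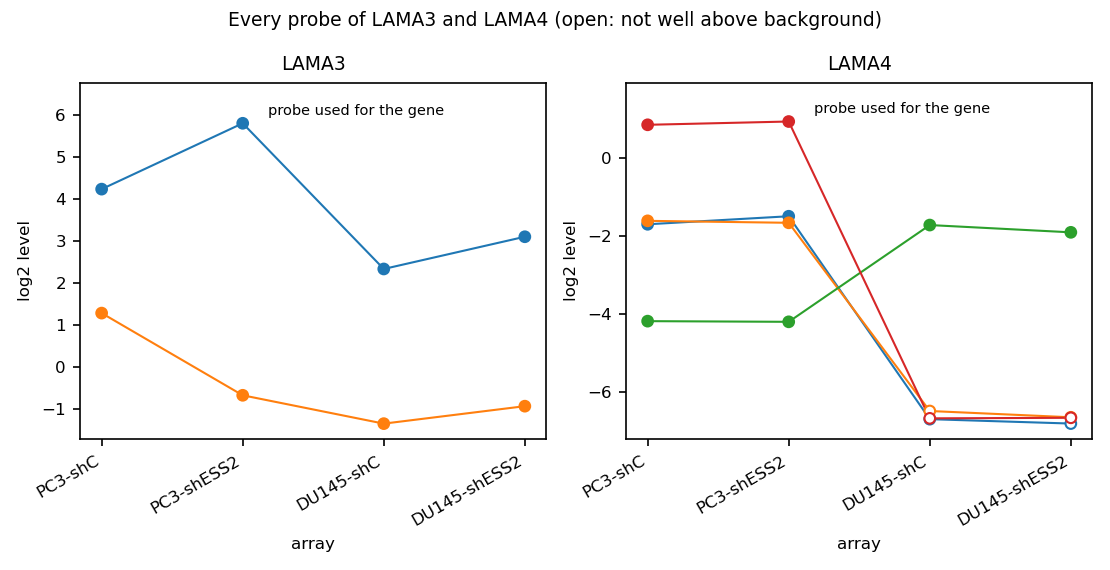
Levels of each probe of LAMA3 (2 probes) and LAMA4 (4 probes) on the 4 arrays, as log2 of the processed signal over the array's 75th percentile; each line joins the values of 1 probe, and open points were not well above background. The LAMA3 probes move in opposite directions between the PC3 arrays, and 1 LAMA4 probe is higher in DU145 where the other 3 are higher in PC3.

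The other 21 members compared in PC3 stayed under 2-fold. Those nearest to it were LAMA1, with a log2 ratio of 0.89, ITGA7 with -0.87 and ITGA9 with -0.71. ITGA2, a collagen receptor subunit, had 0.65, and LAMC3 0.55 on its brightest probe. A dimmer LAMC3 probe was well above background on PC3-shESS2 and not on PC3-shC and gave a log2 ratio of at least 1.12, while the last of its 3 probes was not well above background on any array. The partner shared by most alpha subunits, ITGB1, had 0.07, ITGAV 0.11 and ITGB4 0.04.

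The same question was put to DU145, where fewer genes were past 2-fold. Of the 25 members compared, ITGB8 was past 2-fold higher and LAMB3 past 2-fold lower, with the values given above, 4% of the members each. Over all 16842 genes, 2.36% were past 2-fold higher and 2.47% lower, so the members' share was near that of all genes. The members' median log2 ratio was 0.20, against -0.02 over all genes, and was 0.014 without the filter on dim genes. ITGB8 rests on a bound here: with normexp background correction its log2 ratio was 0.28, and it was not compared where both arrays had to be well above background.

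Under 2-fold in DU145, ITGB3 had a log2 ratio of 0.88, ITGA11 0.84, LAMA3 0.77 and ITGA3 0.71. ITGA11, a fibroblast-type collagen receptor subunit, read -3.77, -4.08, -3.32 and -2.48 on PC3-shC, PC3-shESS2, DU145-shC and DU145-shESS2. ITGA3, a laminin receptor subunit, read 4.35, 4.05, 3.63 and 4.34 in that order. ITGB4 was the lowest after LAMB3, with a log2 ratio of -0.86. The next lowest was LAMA2 at -0.27.

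Set side by side, 10 of the 25 members compared in both lines had ratios of the same sign in PC3 and DU145 (40%, against 57.0% of the 15478 genes compared in both). They were ITGA1, ITGA10, ITGB1, ITGB5, ITGB8, LAMA1, LAMA2, LAMA3, LAMB1 and LAMB2. Of the 15 with opposite signs, ITGB3, ITGA5 and LAMB3 were past 2-fold in at least 1 line, and LAMB3 in both. Some signs rest on ratios under the median spot SD, 0.0840 in PC3 and 0.0821 in DU145. These were ITGA10 (0.03), ITGB1 (0.07) and ITGB4 (0.04) in PC3, and ITGA5 (-0.04) and ITGA9 (0.01) in DU145. Median scaling, which moved the median gene in PC3 by -0.10, is enough to turn the sign of the PC3 ones, so the 40% is not firm. The lines do not share a control array, but with 1 array per group the difference between their responses was not tested.

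**Figure D3:**
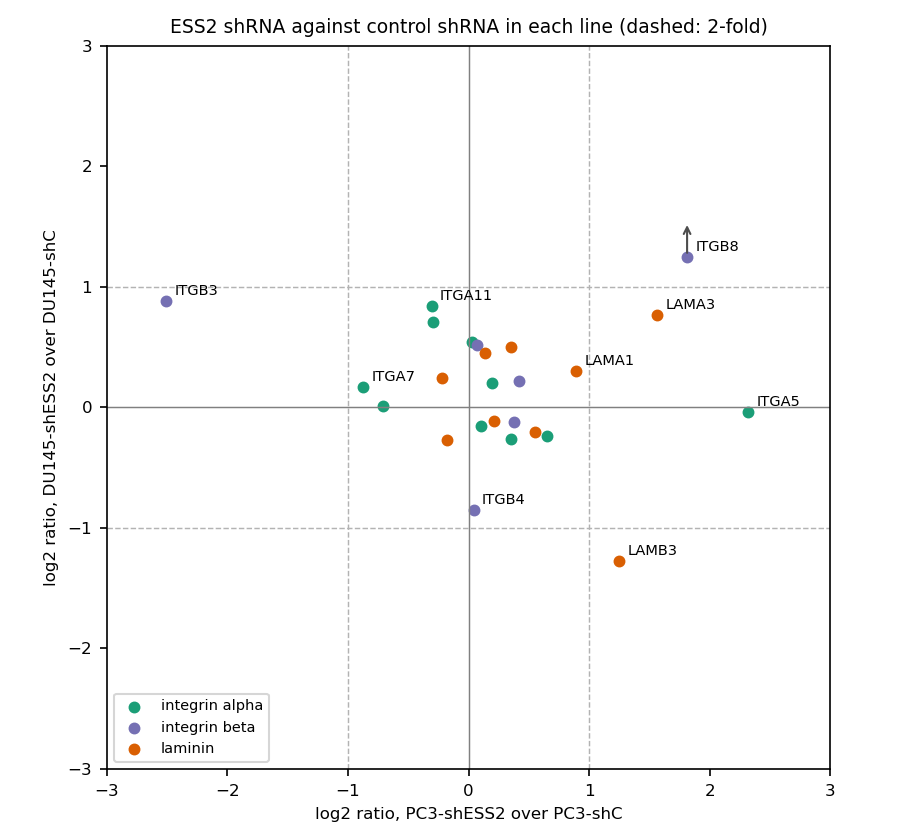
Log2 ratio of the ESS2 shRNA over the control shRNA in PC3 (x axis) and in DU145 (y axis) for the 25 members compared in both lines, 1 point per gene; dashed lines mark 2-fold and the arrow marks a lower bound. ITGA5 lies at 2.32 and -0.04, ITGB3 at -2.51 and 0.88, LAMB3 at 1.25 and -1.28, and ITGB8 at 1.81 and at least 1.25.

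A limma fit over the 4 arrays, with the line and the shRNA as terms, took the 2 lines as replicates of the shRNA. It had 27 members among 17126 genes and 1 residual degree of freedom. For the shRNA it called 0 genes (0%) at an adjusted p under 0.05, and 0 members. At an unadjusted p under 0.05 there were 1047 genes (6.11%) and 2 of the 27 members, ITGB8 and LAMA3. The members' count was thus near the share of all genes. ITGB8 had a mean log2 ratio of 1.53 ± 0.23 (SE; adjusted p = 0.746 in limma, 0.129 to 1.0 over its alternatives), higher in both lines. Its value on DU145-shC was set at the floor in this fit, so neither the mean nor its SE is that of 2 measured ratios. LAMA3 had 1.16 ± 0.27 (SE; adjusted p = 0.746 in limma, 0.252 to 1.0 over its alternatives), higher in both lines on its brighter probe. ESS2 itself, lower in both lines, was not called either.

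The second question was how the 2 control lines differed. Of 27 members compared, 6 were past 2-fold higher on PC3-shC (ITGA2, ITGB3, ITGB4, ITGB8, LAMA3, LAMA4) and 5 were past 2-fold lower (ITGA5, ITGA7, LAMA1, LAMC1, LAMC3). Among all 17475 genes, 22.1% were past 2-fold higher and 19.9% lower, so the members' counts were near those of all genes. These counts move with the scaling between slides: with median scaling 11 members were higher and 2 lower, and with the authors' scaled values 6 were higher and 8 lower. Of all genes past 2-fold, 52.6% were the higher in PC3-shC, against 72.1% with median scaling and 31.7% with the authors' scaled values, which shifted the median gene by 0.46 and -0.43 on the log2 scale. The members' median log2 ratio was 0.26, against 0.12 over all genes, and was below 0 with quantile normalization and with the authors' scaled values.

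Among the members higher in PC3, ITGB4, which with ITGA6 forms the receptor of hemidesmosomes, read 6.48 on PC3-shC, 6.52 on PC3-shESS2, 1.53 on DU145-shC and 0.68 on DU145-shESS2. Both PC3 arrays stood above both DU145 arrays, and the controls differed 30.9-fold. ITGA6 itself read 2.61, 2.97, 2.02 and 1.76, a 1.51-fold difference between the controls, and its second probe gave a log2 ratio of -0.25, so its direction rests on the probe. ITGA2 read -0.43, 0.22, -2.84 and -3.08, and was 5.31-fold higher on PC3-shC, a log2 ratio of 2.41 that was 1.27 with normexp.

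ITGB8, with the values above, was at least 39.2-fold higher on PC3-shC than on DU145-shC, a log2 ratio of 5.29 that was 2.73 with normexp. ITGB6 was well above background in PC3 only, at least 1.22-fold higher. ITGB3 was 3.97-fold higher on PC3-shC than on DU145-shC (log2 ratio 1.99, and 1.44 with normexp), but with the ESS2 shRNA the order of the lines turned, with -1.84 in PC3 and -0.45 in DU145. ITGA5, at 2.07-fold lower on PC3-shC, turned in the same way, and it dropped under 2-fold with median scaling (-0.59 on the log2 scale) and normexp (-0.93).

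Of the laminin alpha chains, 3 of 5 were past 2-fold between the controls, 2 higher on PC3-shC and 1 lower. Over all genes 22.1% were higher and 19.9% lower. LAMA1, the alpha chain of embryonic basement membranes, read -2.23 on PC3-shC, -1.33 on PC3-shESS2, 2.66 on DU145-shC and 2.96 on DU145-shESS2, and was 29.6-fold lower on PC3-shC (log2 ratio -4.89, and -3.79 with normexp). Its second probe was well above background in DU145 only and also gave a lower level in PC3-shC, a log2 ratio of -3.6 or below. LAMA4, a chain of vessel and muscle basement membranes, read 0.85 and 0.93 on the PC3 arrays and -6.67 and -6.66 on the DU145 arrays, where it was not well above background. The controls differed at least 44.2-fold on that probe, a log2 ratio of 5.47 that was 2.80 with normexp, and 2 dimmer probes gave, like it, a higher level in PC3, with log2 ratios of at least 2.92 and 3.0. The last LAMA4 probe read -4.18, -4.20, -1.72 and -1.91, well above background on all arrays, a log2 ratio of -2.46. With quantile normalization that probe became the brightest and the LAMA4 log2 ratio was -2.07.

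LAMA3 was 3.72-fold higher on PC3-shC, and its second probe gave a log2 ratio of 2.62 in the same direction. LAMC1, the gamma chain most laminins share, read 2.20, 2.41, 3.32 and 3.20 on PC3-shC, PC3-shESS2, DU145-shC and DU145-shESS2. Both PC3 arrays were lower, by 2.16-fold between the controls, or a log2 ratio of -0.66 with median scaling. LAMC3 read -2.69, -2.14, -1.52 and -1.72, and was 2.26-fold lower on PC3-shC. Its call was lost with median scaling, quantile normalization and normexp, with log2 ratios of -0.72, -0.85 and -0.62. ITGA7, the muscle-type laminin receptor subunit, read 0.24, -0.63, 1.84 and 2.01, 3.03-fold lower on PC3-shC and lower on both PC3 arrays than on either DU145 array.

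**Figure D4:**
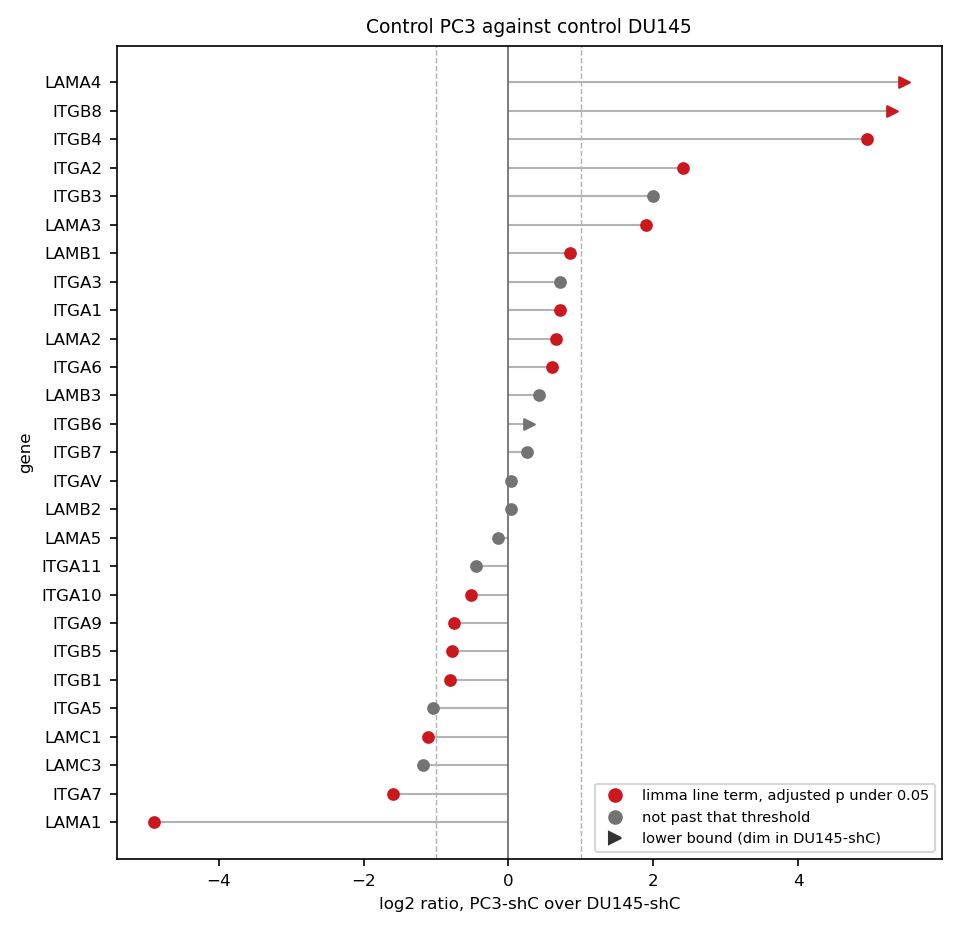
Log2 ratio of PC3-shC over DU145-shC for the 27 members compared, sorted; triangles are lower bounds for genes not well above background on DU145-shC, dashed lines mark 2-fold, and red marks members whose line term passed an adjusted p of 0.05 in the limma fit over all 4 arrays. LAMA4 and ITGB8 lie above 5, ITGB4 at 4.95 and LAMA1 at -4.89.

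In the limma fit, the line term, which averages over both shRNAs, was called for 16 of 27 members (59.3%). Over all genes 52.3% were called, so the members' share was near that of all genes, and the term holds the slide as well as the line. Higher in PC3 were 9 members (ITGA1, ITGA2, ITGA6, ITGB4, ITGB8, LAMA2, LAMA3, LAMA4, LAMB1) and lower 7 (ITGA7, ITGA9, ITGA10, ITGB1, ITGB5, LAMA1, LAMC1). ITGB4 had a mean log2 ratio of 5.40 ± 0.29 (SE; limma adjusted p = 0.00206, 0.000457 to 0.0317 over its alternatives) and LAMA1 one of -4.59 ± 0.23 (SE; limma adjusted p = 0.00193, 0.000641 to 0.0237). ITGB8 and LAMA4 were called in each of the 9 fits that tested them, but LAMA4 with a log2 ratio of -2.05 in the fit after quantile normalization, through the last of its probes above. In the main fit both DU145 values of LAMA4, and that of ITGB8 on DU145-shC, were set at the floor. The spread behind these line calls is therefore not that of measured values. ITGA2 (limma adjusted p = 0.00561), LAMA3 (0.00716) and ITGA7 (0.0119) were called in 9 of 10 fits and missed the threshold without a filter on dim genes. ITGB3, ITGA5 and LAMC3, past 2-fold between the controls, were not called; of the 10 fits, 0 called ITGB3 or ITGA5 and 3 called LAMC3.

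The remaining called members differed less, with mean log2 ratios between 0.68 and 1.11 in size. ITGB1 read 3.03, 3.1, 3.85 and 4.36 on PC3-shC, PC3-shESS2, DU145-shC and DU145-shESS2 (line term -1.04 ± 0.21 SE). ITGB5, a partner of ITGAV, read 1.42, 1.84, 2.21 and 2.42, and LAMB1, a widespread beta chain, 3.8, 4.16, 2.95 and 3.45. In each of these the PC3 arrays lay on 1 side of the DU145 arrays.
The collagen receptor subunit ITGA1 read -2.47, -2.27, -3.18 and -2.98. ITGA10, another collagen receptor subunit, read -1.70, -1.68, -1.18 and -0.64, and its call held in 6 of 10 fits, with limma adjusted p from 0.0187 to 0.244. ITGA6 was likewise called in 6 of 10 fits (limma adjusted p up to 0.173), ITGA9, ITGB5 and LAMB1 in 7 (up to 0.140, 0.270 and 0.153), and ITGA1, ITGB1, LAMA2 and LAMC1 in 8 (up to 0.312, 0.0900, 0.648 and 0.0742). ITGA9, which binds tenascin, read -3.75, -4.46, -3.0 and -2.99. LAMA2, the alpha chain of muscle basement membranes, read -2.49, -2.67, -3.14 and -3.42, the PC3 arrays being the higher.

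Members with little difference in any comparison were ITGAV, LAMA5, LAMB2 and ITGB7. ITGAV, the alpha partner of ITGB3, ITGB5, ITGB6 and ITGB8, read 3.13, 3.23, 3.09 and 2.93. LAMA5, the alpha chain of most adult epithelial basement membranes, read 2.0, 1.78, 2.15 and 2.39. LAMB2 read 4.32, 4.45, 4.28 and 4.73, with a second probe whose log2 ratios were 0.10, 0.49 and 0.26 in PC3, in DU145 and between the controls. ITGB7, a leukocyte beta subunit, read -1.22, -0.84, -1.48 and -1.60.

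Of 8 integrin and laminin genes outside the 29, ITGAD, ITGAL and LAMB4 were not well above background on any array. In PC3, of the 4 compared, 0 were past 2-fold higher and ITGB2 was lower, with a log2 ratio of -1.57, or 25% of those compared against 3.87% of all genes. In DU145, of the 5 compared, ITGB2 was past 2-fold higher (1.504), ITGAX too as a bound of 1.24, and 0 were lower. Over all genes 2.36% were higher there, and with normexp, or with both arrays well above background, 1 gene of the list was. ITGAE had log2 ratios of 0.17 in PC3 and -0.25 in DU145, and ITGAM bounds of 0.58 and 0.45. ITGB2, the beta subunit of leukocyte integrins, read 4.25, 2.67, 1.05 and 2.55, so it stood on opposite sides of its control in the 2 lines. Between the controls, of the 3 compared, ITGB2 (3.20) was past 2-fold higher in PC3 and ITGA2B (-1.75) lower, where 22.1% and 19.9% of all genes were, and with normexp 0 were lower.

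Adaptors and kinases at the cytoplasmic side of integrins were counted as a list of 28 genes. In PC3 with the ESS2 shRNA, 1 was past 2-fold higher (LIMS2, log2 ratio 1.14) and 3 were past 2-fold lower (PTK2B -1.35, ZYX -1.14, TNS3 -1.12), or 3.57% and 10.7% of the list against 3.88% and 3.87% of all genes, and with quantile normalization 2 were lower. In DU145, 2 were past 2-fold higher (TNS4 1.47, FERMT3 1.26) and 0 lower, or 7.14% higher against 2.36% of all genes, and with normexp 0 were higher. Between the controls 15 of 28 were past 2-fold higher in PC3 (53.6%, against 22.1% of all genes) and 0 lower (against 19.9%), with a median log2 ratio of 1.12 against 0.12 over all genes and TNS4 the farthest at 7.78. Under the alternatives 10 to 19 were higher and 0 to 1 lower, the 10 being with the authors' scaled values. Neither of the integrin inhibitors SHARPIN and ITGB1BP1 was past 2-fold in the 3 comparisons, although 1 of them was higher between the controls with median scaling. Of the hemidesmosome genes PLEC, DST and COL17A1, 0 were past 2-fold in either knockdown, while PLEC was higher (1.59) and DST lower (-2.07) in PC3-shC than in DU145-shC. Of all genes 22.1% were higher and 19.9% lower between the controls. With the mean of a gene's probes, 1 of the 3 was past 2-fold higher on PC3-shESS2 and 0 were past 2-fold higher between the controls, while 2 were past 2-fold lower there on the authors' scale.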

How the data were processed

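Cy3-labelled cRNA from 0.1 μg total RNA per group was hybridised to 4 Agilent one-colour arrays. Per the file headers, the authors extracted each intensity with Agilent Feature Extraction 12.1.0.3 (PC3) or 12.0.3.1 (DU145), on a design built on hg19; the processed signal is background-subtracted. The series table held the same signals times 1 constant per array (deposited as scaled signal) and served as an alternative. GeneSpring settings of the study were not given in the sources used here. Here, control spots and outlier flags were left out, log2 of the processed signal minus the array's 75th percentile was taken, and spots of a probe were averaged; 35080 of 58201 probes were named through RefSeq accessions, and the probe brightest on average stood for a gene. A gene was compared where 1 of the arrays was well above background, and entered limma 3.58.1 (R 4.3.3; terms for line and shRNA, Benjamini-Hochberg) where 2 of 4 were. Scripts were tested on simulated data. The number of arrays limits the precision. The members, lists and tests were chosen with earlier results of these data known. All members are named, and values on each array are given for those past 2-fold or called by limma. The other genes named are mostly those past 2-fold in a comparison or farthest in their list, though not every such gene is named. Scaling, background correction, probe choice and filters were varied. 1 further gene, beyond the 8 other integrin and laminin genes counted, is not reported here.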

Additional observations from a re-analysis of the deposited data

Results flagged for a closer look

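ITGB3 stood on opposite sides of its control in the 2 lines, with a log2 ratio of -2.51 on PC3-shESS2 against PC3-shC and of 0.88 on DU145-shESS2 against DU145-shC. LAMB3 did so the other way round, with 1.25 in PC3 and -1.28 in DU145. Each ratio is of 1 array against 1 array, and the difference between the lines was not tested.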

How the results depend on the processing

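The alternatives were median scaling, quantile normalization, normexp background correction (offset 50, which shrinks ratios of dim probes), the authors' scaled values, the mean of a gene's probes, outlier spots kept, limma without the block and other filters on dim genes. The count of members past 2-fold in PC3 was 6 and went from 5 to 7, and that between the controls was 11 and went from 9 to 14. In DU145 it was 2, and 1 with normexp or where both arrays had to be well above background. With the mean of a gene's probes the PC3 count held at 6, but LAMA3 left it and LAMA1 came in, through a probe dim on both PC3 arrays. limma called 0 members for the shRNA under each alternative; for the line it called 16, 13 to 16 under the other alternatives and 8 without a filter on dim genes, where ITGA8, which was on no array well above background, was among those called. The LAMA3 log2 ratio in PC3 turned to -0.19 with the mean of its probes, and that of LAMA4 between the controls to -2.07 with quantile normalization, which made another probe the brightest. The members' median log2 ratio between the controls turned from 0.26 to -0.20 with quantile normalization and to -0.19 with the authors' scaled values. The latter differ from the main values by 1 constant per array, and moved the median gene between the controls by -0.43. The cause of the turn with quantile normalization was not tested. With median scaling the median gene in PC3 moved by -0.10, and 38.9% of genes past 2-fold were the higher in place of 50.04%. With the authors' scaled values it moved by 0.09, and 59.7% were the higher. Over all genes 1299 were past 2-fold in PC3 (571 with normexp, 2624 without a filter) and 813 in DU145 (216 with normexp, 548 with both arrays above background, 2020 without a filter). The fit for the shRNA has the line as its block; without the block it called 0 members for the shRNA, and without the shRNA term 15 for the line. What is not well above background gives a bound at most, and a ratio near the floor, such as that of ITGB6, is less sure than those of bright probes.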

Other observations

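Matrix ligands and basement membrane partners of integrins were counted as a list of 16 genes. In PC3, 14 were compared, and NID2, a nidogen that links laminin to collagen IV networks, was past 2-fold higher on PC3-shESS2. It read -4.42 on PC3-shC, -2.38 on PC3-shESS2, 0.15 on DU145-shC and 1.16 on DU145-shESS2, log2 ratios of 2.04 in PC3 and 1.01 in DU145, and it was the only gene of the list past 2-fold in both lines, although with normexp it was under 2-fold in PC3. In DU145, NTN4 (1.70), VTN (1.5) and EDIL3 (1.06) were also past 2-fold higher, and 0 were lower in either line; with normexp 2 genes of the list were past 2-fold higher in DU145. Over all genes 2.36% were past 2-fold higher in DU145 and 3.88% in PC3. Between the controls 5 of 15 were past 2-fold higher in PC3 (33.3%, against 22.1% of all genes) and 6 lower (40%, against 19.9%), from at least 4.77 for FN1, fibronectin, which was not well above background on DU145-shC, to -7.39 at most for EDIL3, which was not well above background on PC3-shC.

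Of 10 membrane partners such as tetraspanins and syndecans, 0 were past 2-fold in either knockdown with dim spots set to the floor, and 1 was past 2-fold higher in PC3 with the plain signal of dim spots. Of all genes 3.88% were past 2-fold higher and 3.87% lower in PC3, and 2.36% and 2.47% in DU145, so 0 of 10 is near that share. The partners' median log2 ratio was -0.26 in PC3 and 0.34 in DU145, against -0.05 and -0.02 over all genes, and it kept these signs under each alternative. CD47, a partner of ITGB3, was the lowest in PC3 at -0.80 and BCAM, a receptor of LAMA5, the highest at 0.89 or above, a bound since it was not well above background on PC3-shC. Between the controls 4 were past 2-fold higher in PC3 (CD47, SDC4, CD44, CD81; 2 genes with quantile normalization, 3 with the authors' scaled values and 6 with median scaling) and BCAM lower (-3.03 or below, a bound for the same reason), or 40% and 10% of the list against 22.1% and 19.9% of all genes.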
